A study of Mus musculus with 16 samples.

Results

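The genes examined here were 7 genes by which sensory neurons of the main olfactory epithelium detect odorants or bring their receptors to the cell surface: *Cnga2*, *Gnal*, *Adcy3*, *Stoml3*, *Rtp1*, *Rtp2* and *Ric8b*. They were chosen by symbol, and all 7 were among the 24340 genes listed in both the count and the RPKM tables. They were measured in the vomeronasal organ (VNO), a separate chemosensory organ at the base of the nasal septum. RNA came from 16 pools of VNOs, each from 3 mice of 1 sex and 1 line, at 12 weeks of age in generation 88 of a selection experiment on outbred Hsd:ICR mice. The HR lines (lines 3, 6, 7 and 8) were bred for high voluntary wheel running and the Control lines (lines 1, 2, 4 and 5) without that selection, and each line gave 1 male and 1 female pool. All mice shared the Hsd:ICR background, and none carried a transgene or received a treatment that the labels name. A pool is 1 library, so the spread between the 3 mice of a pool was not measured, and the 4 lines of a linetype are its replicates.

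In neurons of the main olfactory epithelium, an odorant receptor activates the stimulatory G protein alpha subunit Golf, encoded by *Gnal*. Golf stimulates adenylyl cyclase type III (*Adcy3*), and the cyclic AMP it makes opens a cyclic nucleotide-gated channel whose principal subunit is *Cnga2*. *Ric8b* encodes a chaperone and exchange factor for Golf, *Stoml3* a stomatin-family membrane protein of olfactory cilia, and *Rtp1* and *Rtp2* the receptor transporting proteins that help odorant receptors to reach the plasma membrane. Vomeronasal neurons use another cascade, with vomeronasal receptors, the G proteins Gi2 (*Gnai2*) or Go (*Gnao1*) and the channel TRPC2. The question put to the data was therefore which of the 7 genes were present in every VNO pool at levels that went with the vomeronasal neurons, and which were high in single pools.

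Counts on genes ranged from 15998552 to 70875276 per library. Defining markers of vomeronasal neurons were high in every library. The olfactory marker protein gene *Omp*, which main olfactory and vomeronasal neurons share, lay between 1260 and 2594 CPM (counts scaled to the total of the library), *Gnai2* between 712 and 1567 CPM, *Gnao1* between 303 and 504 CPM and the vomeronasal receptor gene *Vmn2r1* between 116 and 259 CPM. *Trpc2* had 0 counts in all 16 libraries and an RPKM of 259 to 417, and all 2874 of its exonic bases also lie in another gene of the same strand. The hemoglobin genes of the blood list were listed at 0 throughout. In these bulk pools, fewer cells of a type and less RNA per cell cannot be told apart.

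Positions are those of GENCODE release M21 on GRCm38. *Cnga2* (ENSMUSG00000005864.7) is at chrX:71991849-72010218, *Stoml3* (ENSMUSG00000027744.4) at chr3:53488653-53508502, *Adcy3* (ENSMUSG00000020654.15) at chr12:4133103-4213525 and *Ric8b* (ENSMUSG00000035620.15) at chr10:84917616-85018337, all on the plus strand. *Rtp1* (ENSMUSG00000033383.6, chr16:23429133-23433960, plus strand) and *Rtp2* (ENSMUSG00000047531.9, chr16:23925548-23932394, minus strand) are on the same chromosome. All 7 genes are protein-coding, and counts cover their exons. Of the 75-nucleotide words of their transcripts, 100% occurred in no other gene for 5 members, 93.0% for *Gnal* and 83.2% for *Adcy3*. *Gnal* shares 852 exonic bases with *Mppe1* and *Adcy3* 1380 with *Cenpo* on the opposite strand, and the sources used here do not state whether the counting used the strand.

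Promoter windows of 300 bases (250 before to 50 after the annotated start, RefSeq on GRCm38.p6) were read for 5 of the 7 genes. Windows of *Gnal* and *Rtp1* were not read. Those of *Cnga2* and *Stoml3* are shown because both genes were highest in the same 3 pools, and that of *Rtp2* because it differed most clearly between lines and went with the vomeronasal neurons. Capitals mark CCCNNGGG, the core of the motif of the EBF (Olf-1) factors of olfactory neurons, which reads the same on both strands and does not overlap with the other motif searched. The windows are chrX:71991599-71991898 (plus strand), chr3:53488457-53488756 (plus strand) and chr16:23930745-23931044 (minus strand), each printed 5′ to 3′.
Cnga2: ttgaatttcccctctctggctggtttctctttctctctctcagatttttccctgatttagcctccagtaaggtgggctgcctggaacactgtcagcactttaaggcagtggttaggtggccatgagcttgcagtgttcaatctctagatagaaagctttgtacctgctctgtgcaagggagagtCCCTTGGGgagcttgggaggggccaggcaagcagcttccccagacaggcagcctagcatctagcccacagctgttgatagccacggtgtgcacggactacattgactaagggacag
Stoml3: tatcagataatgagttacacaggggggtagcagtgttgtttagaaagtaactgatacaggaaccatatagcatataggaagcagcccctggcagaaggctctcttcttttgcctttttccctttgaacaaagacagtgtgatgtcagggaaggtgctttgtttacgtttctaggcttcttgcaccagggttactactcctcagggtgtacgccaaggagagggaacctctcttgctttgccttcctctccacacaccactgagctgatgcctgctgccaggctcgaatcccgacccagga
Rtp2: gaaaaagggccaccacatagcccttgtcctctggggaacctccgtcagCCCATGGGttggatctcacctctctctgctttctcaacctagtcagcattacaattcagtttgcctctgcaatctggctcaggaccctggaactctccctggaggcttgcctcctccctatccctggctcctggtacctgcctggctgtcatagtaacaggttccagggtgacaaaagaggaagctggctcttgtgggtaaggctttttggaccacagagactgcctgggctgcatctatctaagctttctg

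CCCNNGGG was present in 13.7% of the 32851 mouse promoter windows of this length. It occurred 1 time in *Cnga2*, at position -66 from the start, and 1 time in *Rtp2*, at position -202, and these letters were not in the windows of *Stoml3*, *Ric8b* and *Adcy3*. The *Rtp2* window lies within the GENCODE span of that gene, whose 5′ end is at 23932394, so -202 counts from an inner RefSeq start. TAATTA, the core read by LIM-homeodomain factors such as LHX2, was present in 5.29% of all windows and in none of those read for the members. The GC content was 52.7% for *Cnga2*, 49.3% for *Stoml3*, 54% for *Rtp2* and 68.3% for *Ric8b*, against a median of 52.7% over all windows. The motif thus occurred in 1 gene that was high in single pools and in 1 that was high in all pools.

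The levels of the 7 genes per transcript length (RPKM) spanned several orders of magnitude, from genes as abundant as vomeronasal channel RNA to genes with hardly a read. *Rtp1* lay between 218 and 355 RPKM (median 261), *Rtp2* between 77.2 and 153 (median 110), *Adcy3* between 13.98 and 23.2 (median 19.4) and *Ric8b* between 4.96 and 6.33 (median 5.83). In this order each gene exceeded the next in 16 of 16 libraries, and the ranges of neighbours did not overlap. *Gnal* followed at 0.294 to 3.20 RPKM (median 0.501), again below *Ric8b* in 16 of 16 libraries with no overlap. *Stoml3* lay between 0.129 and 9.51 RPKM (median 0.444) and did not separate from *Gnal*, which was higher in only 9 of 16 libraries. *Cnga2* was lowest at 0 to 1.85 RPKM (median 0.0413). It was below *Stoml3* in 16 of 16 libraries, although the ranges of the pair overlapped. The chaperone and trafficking genes and the cyclase were thus well detected in every VNO pool, whereas the channel subunit and the stomatin were near the limit of detection in most. RPKM and CPM gave nearly the same profile over libraries for 6 genes, within 0.17 on the log2 scale where at least 20 counts were present. For *Gnal* the RPKM departed from the CPM by -0.71 in the Control line 5 female pool to 0.97 in the male pool of that line. Its level per length is less certain for that reason.

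**Figure D1:**
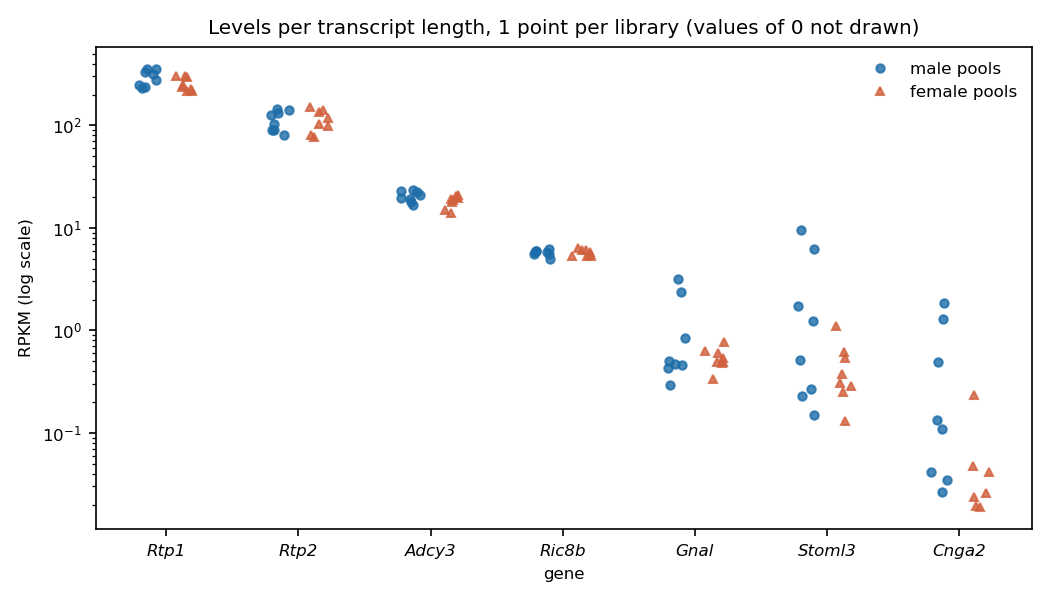
RPKM of the 7 genes (x axis) in the 16 libraries on a log y axis, 1 point per library, with male pools as circles and female pools as triangles. *Rtp1*, *Rtp2*, *Adcy3* and *Ric8b* form narrow separate bands, while *Gnal*, *Stoml3* and *Cnga2* spread widely and their highest points are male pools; 1 *Cnga2* value of 0 is not drawn.

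*Cnga2*, the channel subunit, was high in 3 male pools. In male pools it was 0.130, 0.0745, 0.371 and 5.18 CPM in Control lines 1, 2, 4 and 5, and 3.67, 1.38, 0.121 and 0.307 CPM in HR lines 3, 6, 7 and 8. In female pools it was 0.0703, 0.0513, 0.0504 and 0.127 CPM in the Control lines and 0.110, 0.620, 0.0632 and 0 CPM in the HR lines, in the same order. The male pools of Control line 5, HR line 3 and HR line 6 lay above the other 13 libraries, and together they held 83.0% of the summed CPM. Behind these values were 132, 155 and 44 reads, against at most 21 in any other library. The 95% Clopper-Pearson interval of the level without TMM scaling was 3.81 to 5.40 CPM in the Control line 5 male pool and 0.0151 to 0.452 in the female pool of the same line, and such intervals cover counting error only. The 0 counts of the HR line 8 female pool allow up to 0.0844 CPM.

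*Stoml3* had the same 3 highest libraries. In male pools it was 0.245, 0.168, 0.847 and 7.54 CPM in Control lines 1, 2, 4 and 5, and 5.06, 1.41, 0.121 and 0.409 CPM in HR lines 3, 6, 7 and 8. In female pools it was 0.422, 0.205, 0.227 and 0.190 CPM in the Control lines and 0.478, 0.797, 0.274 and 0.0798 CPM in the HR lines. The male pools of Control line 5, HR line 3 and HR line 6 held 75.8% of the summed CPM and did not overlap with the rest, where the highest value was 0.847 CPM. Among the female pools, that of HR line 6 was highest for both genes. The ratio of *Stoml3* to *Cnga2* CPM in the 3 male pools was 1.45, 1.38 and 1.02. Over the 16 libraries the levels of *Cnga2* and *Stoml3* had a Spearman rho of 0.76, a description in which both share libraries and their depth.

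*Gnal* (ENSMUSG00000024524.17, plus strand of chromosome 18 from 67088216 to 67226792), the Golf alpha subunit, had reads in every library but the same pools stood out. In male pools it was 4.47, 3.93, 7.23 and 18.4 CPM in Control lines 1, 2, 4 and 5, and 14.8, 6.69, 5.26 and 4.60 CPM in HR lines 3, 6, 7 and 8. In female pools it was 6.26, 4.31, 5.50 and 11.2 CPM in the Control lines and 7.14, 5.49, 5.10 and 4.52 CPM in the HR lines. Its 2 highest libraries were again the male pools of Control line 5 and HR line 3, but the next was the female pool of Control line 5, where *Cnga2* had 2 reads. The male pool of HR line 6 was within the range of the other libraries. In CPM, *Gnal* thus combined a level of 3.93 or more in every pool with higher values in both pools of Control line 5 and in the male pool of HR line 3. In RPKM the order differed. The male pools of Control line 5, HR line 3 and HR line 6 were then highest, at 3.20, 2.38 and 0.843 RPKM. The Control line 5 female pool was at 0.632 RPKM, below the HR line 6 female pool at 0.763 RPKM.

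**Figure D2:**
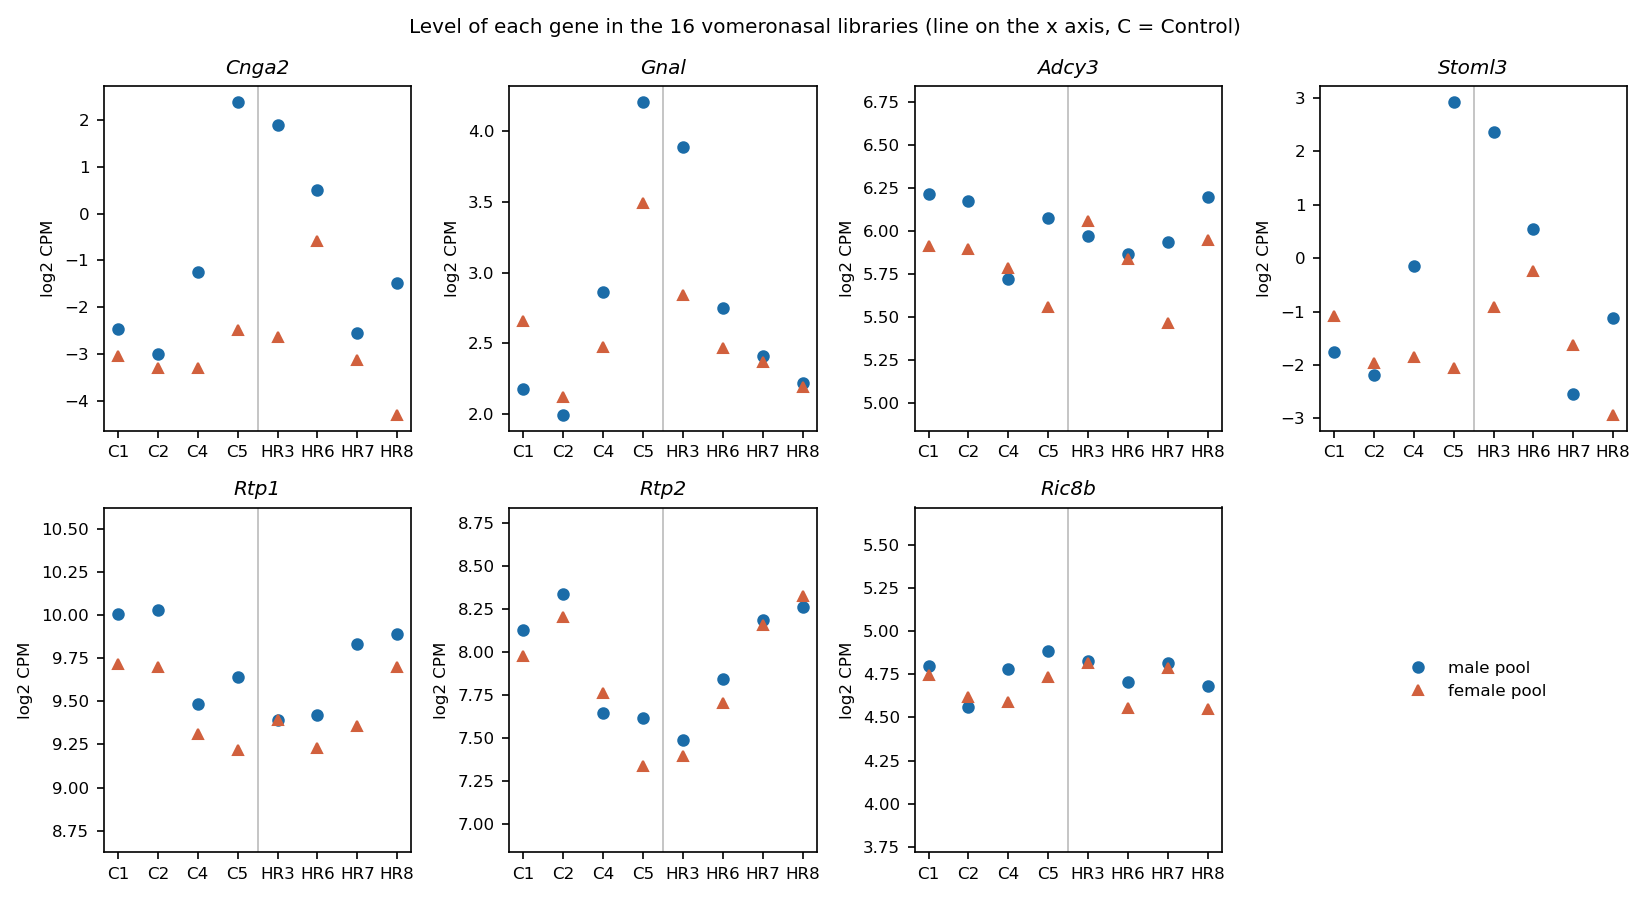
Log2 CPM (prior count 2, y axis) of each gene in the 16 libraries by line (x axis), with male pools as circles, female pools as triangles and Control and HR lines on either side of the vertical line. The *Cnga2*, *Gnal* and *Stoml3* panels peak in the male pools of Control line 5 and HR line 3, while both pools of a line lie close together for *Rtp2* and the *Ric8b* values are nearly level; y axes differ in range.

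Other genes of the main olfactory epithelium were high in the same 3 male pools. *Cyp2g1*, a cytochrome P450 of its supporting cells and Bowman glands, had 38.4, 35.6 and 10.3 CPM in the male pools of Control line 5, HR line 3 and HR line 6 and at most 6.99 CPM in the other 13 libraries. *Ugt2a1*, the olfactory glucuronosyltransferase of these cells, had 18.5, 15.5 and 4.75 CPM there and at most 4.24 CPM elsewhere. The odorant receptor gene *Olfr124* had 6.72, 4.50 and 1.63 CPM there and at most 0.384 CPM elsewhere. These genes were singled out after their values had been seen. Relative to *Cnga2* their ratios were similar in the 3 pools: 1.30, 1.23 and 1.18 for *Olfr124*, 3.58, 4.21 and 3.45 for *Ugt2a1*, and 7.40, 9.71 and 7.52 for *Cyp2g1*. These genes were picked for being high in these pools, so the likeness of the ratios is partly built in. For *Gnal* the ratio was 3.55, 4.03 and 4.86. 

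The full marker lists did not all move with these pools. Of the 6 genes of the support cell list, 2 (*Cyp2g1* and *Ugt2a1*) exceeded every other library in all 3 pools, and the summed level of the list was 1357 to 1833 CPM there and 956 to 2161 CPM in the other 13 libraries. *Cbr2* made most of that sum at 743 to 1347 CPM. *Cyp2a5* was highest in the HR line 6 female pool and *Sult1c1* in the Control line 4 female pool. *Aqp5* was highest in the male pools of HR line 3 and Control line 5, at 102 and 86.4 CPM. In the HR line 6 male pool *Aqp5* had 65.1 CPM, within the range of the other 13 libraries, which reached 76.2 CPM. Of the 12 genes of the list of main olfactory neurons, which holds 6 of the 7 members, 2 (*Cnga2* and *Stoml3*) exceeded every other library in all 3 pools, and its summed level was 4050 to 5117 CPM there and 3019 to 6274 CPM elsewhere. The vomeronasal neuron list summed to 3857 to 4415 CPM in the 3 pools and 3051 to 5619 CPM elsewhere, and in none of the 15 lists other than those of support cells and main olfactory neurons did a gene exceed all other libraries in all 3 pools. Whether tissue of the main olfactory epithelium in the pools contributed to the levels of *Cnga2*, *Stoml3* and *Gnal* was not tested.

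**Figure D3:**
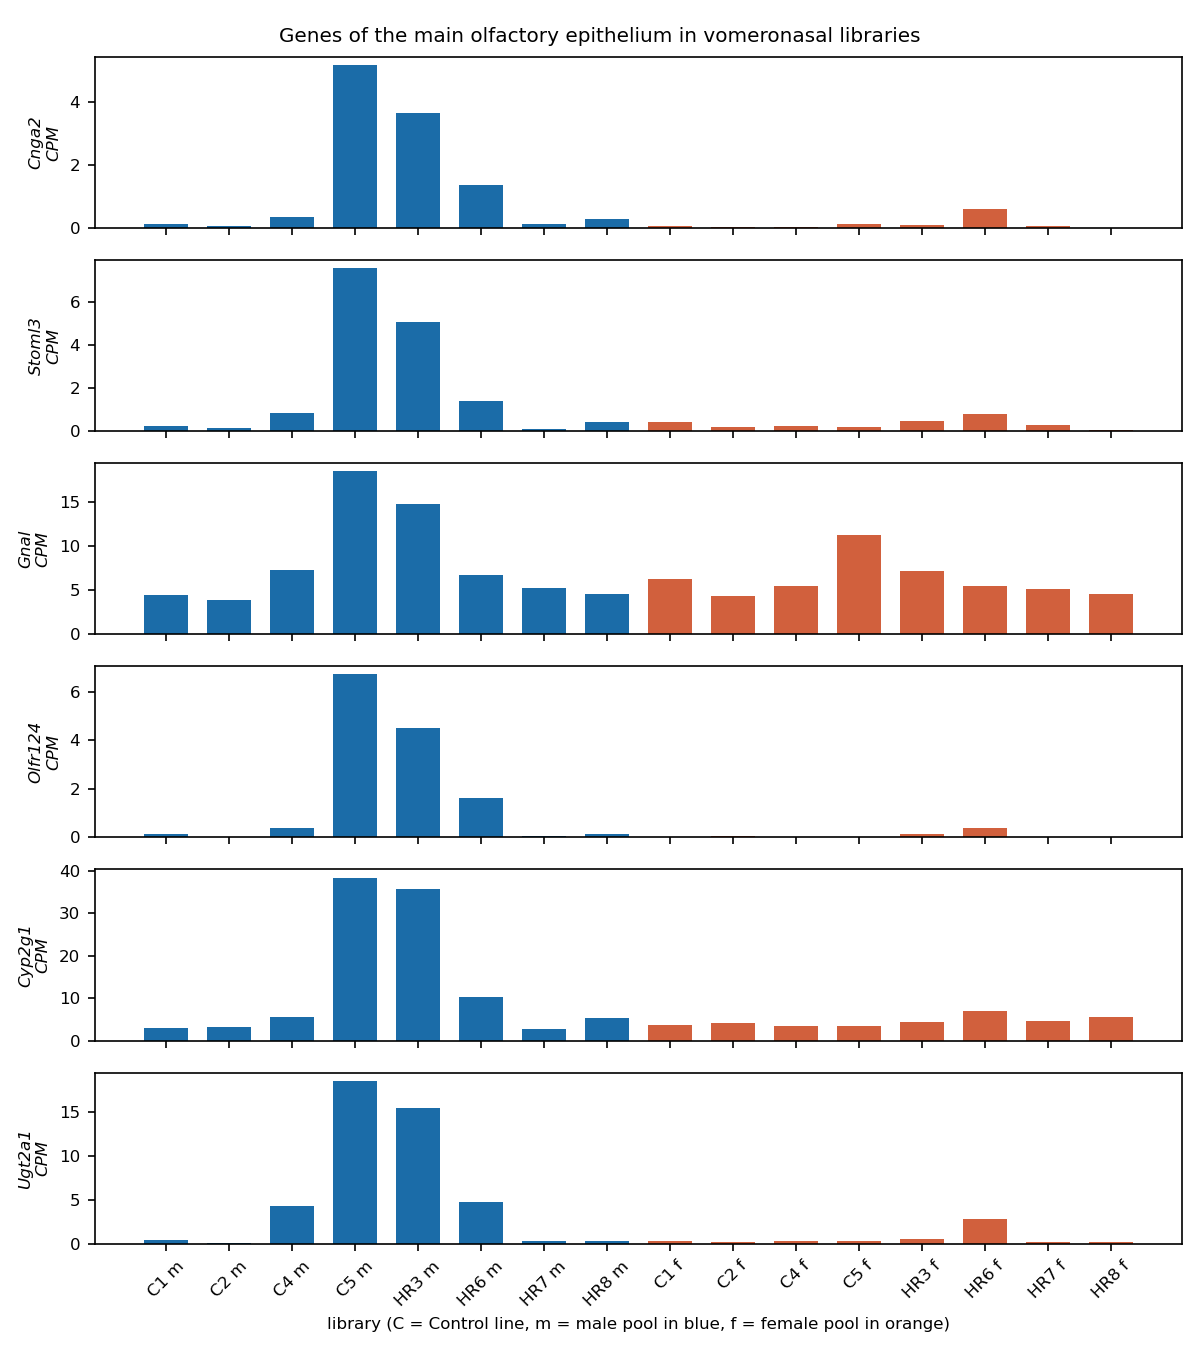
CPM (y axis, from 0) of *Cnga2*, *Stoml3*, *Gnal*, *Olfr124*, *Cyp2g1* and *Ugt2a1* in the 16 libraries (x axis), male pools in blue and female pools in orange. The male pools of Control line 5, HR line 3 and HR line 6 carry the 3 highest bars for every gene but *Gnal*, whose bar for the HR line 6 male pool is lower than that of the Control line 5 female pool at 11.2 CPM.

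Few single odorant receptor genes reached a rho of 0.7 with *Cnga2*, and most had under 30 reads over all libraries. Of 1125 *Olfr* genes in the tables, 112 to 297 had a read in a given library, and 120 had at least 30 reads over all libraries. Only 2 of these 120, *Olfr15* (rho = 0.85) and *Olfr124* (rho = 0.84), had a rho of at least 0.7 with *Cnga2*. *Olfr653* (rho = 0.699) and *Olfr1509* (rho = 0.689) fell just short. *Olfr1509* had at least 0.438 CPM in the male pools that stood apart in *Cnga2* and at most 0.0885 CPM elsewhere. The most abundant, *Olfr692*, made 3.69% to 62.5% of the summed *Olfr* CPM and reached its maximum of 71.0 CPM in the Control line 5 female pool, in which *Cnga2* was at 0.127 CPM. Over the 16 libraries *Cnga2* had a rho of 0.41 with the summed *Olfr* level and of -0.02 with the sum without *Olfr692*. Within the 8 male libraries the relation of *Cnga2* to the sum passed an exact permutation test of Pearson's r (adjusted p = 0.0259). By the same measure it did not pass within the 8 female libraries (exact permutation test, adjusted p = 0.626) or in males without *Olfr692* (exact permutation test, adjusted p = 0.299). The 15 trace amine receptor (*Taar*) genes, which other main olfactory neurons express, had at most 1 read in a library.

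*Rtp2* and *Rtp1* behaved differently from the genes above: they were abundant in every pool and followed the neuronal genes of the VNO. *Rtp2* in male pools was 279, 323, 200.3 and 196 CPM in Control lines 1, 2, 4 and 5, and 180, 229, 291 and 307 CPM in HR lines 3, 6, 7 and 8. In female pools it was 252, 295, 217 and 162 CPM in the Control lines and 168, 209, 285 and 320 CPM in the HR lines. Both pools of Control lines 1 and 2 and HR lines 7 and 8 lay above both pools of Control lines 4 and 5 and HR lines 3 and 6, with no overlap. Male and female pools of a line differed by an SD of 0.13 on the log2 scale over the 8 lines, against an SD of 0.34 between line means.

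*Rtp1* in male pools was 1030, 1044, 717 and 800 CPM in Control lines 1, 2, 4 and 5, and 673, 684, 912 and 948 CPM in HR lines 3, 6, 7 and 8. In female pools it was 841, 833, 635 and 597 CPM in the Control lines and 671, 601, 656 and 831 CPM in the HR lines. The male pools of Control lines 1 and 2 and HR lines 7 and 8 were again the highest. Of the female pools, those of Control lines 1 and 2 and HR line 8 were high, and that of HR line 7 lay among the low ones. The male pool was higher than the female pool in 8 of 8 lines.

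*Omp* is a marker of mature neurons of both organs. Over the 16 libraries the Spearman rho with *Omp* was 0.89 for *Rtp2*, 0.75 for *Rtp1* and 0.53 for *Adcy3*, and -0.27 for *Cnga2*, -0.49 for *Stoml3*, -0.35 for *Ric8b* and -0.79 for *Gnal*. When levels were expressed relative to *Omp*, the SD over libraries on the log2 scale went from 0.34 to 0.15 for *Rtp2* and from 0.27 to 0.17 for *Rtp1*. For *Adcy3* it was 0.21 before and 0.24 after, and for *Gnal* 0.65 before and 0.85 after. CPM are shares of a library, so the levels of abundant genes are not independent of each other, and these correlations describe the 16 libraries.

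*Adcy3* and *Ric8b* varied little. *Adcy3* lay at 52.6 to 74.2 CPM in the male and 47.1 to 60.2 CPM in the female pools of the Control lines, and at 58.3 to 73.2 CPM and 44.2 to 66.6 CPM in those of the HR lines, so that the 4 groups overlapped. *Ric8b* lay at 23.6 to 29.5 CPM and 24.1 to 26.8 CPM in the male and female pools of the Control lines and at 25.6 to 28.4 CPM and 23.3 to 28.1 CPM in those of the HR lines. Its SD over the 16 libraries was 0.11 on the log2 scale, the smallest of the 7 genes, and the highest library was 1.27 times the lowest. In the 3 male pools in which *Cnga2* stood out, *Adcy3* was within the range of the other 13 libraries (58.3 to 67.3 against 44.2 to 74.2 CPM). *Ric8b* was 26.0 to 29.5 CPM there and 23.3 to 28.1 CPM elsewhere.

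Whether the lines differed was tested with edgeR's quasi-likelihood F-test, with sex in the model, so that the male and the female pool of a line served as its replicates. The level differed between the 8 lines for 4 of the 7 genes, where 25.6% of the 17181 genes tested were called (4406 genes). These were *Rtp2* (adjusted p = 0.00066), *Gnal* (adjusted p = 0.0111), *Rtp1* (adjusted p = 0.0159) and *Cnga2* (adjusted p = 0.0184), all by edgeR. For *Cnga2*, male and female pools of a line differed by an SD of 1.81 on the log2 scale, against an SD of 1.39 between line means. Its male and female pools had 132 and 2 reads in Control line 5, and 155 and 3 in HR line 3. *Stoml3* (adjusted p = 0.0934), *Ric8b* (0.201) and *Adcy3* (0.259) did not pass. *Cnga2* was called in 23 of 24 edgeR fits with a line or a library left out (adjusted p of 0.0138 to 0.0592, the highest without the Control line 2 male pool), and it was not called without the 3 male pools that stood apart together (adjusted p = 0.114). Without these 3 pools, edgeR gave adjusted p of 0.0494 for *Gnal*, 0.0329 for *Rtp1* and 0.00437 for *Rtp2*, and lines 3, 5 and 6 were then represented by 1 female pool each, assumed to vary like the other lines. The 3 pools were picked for their high *Cnga2*, so the loss of its call without them was partly built in. Without both pools of Control line 5, *Gnal* had an adjusted p of 0.0542. *Stoml3* passed without the Control line 5 female pool, but that line then held only the male pool in which *Stoml3* was highest.

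No difference between HR and Control lines was found in any of the 7 genes. With edgeR and sex in the model, 0 of 7 had an adjusted p under 0.05, where 0.0242% of 16507 genes were called, and 0 of 7 had an unadjusted p under 0.05, where 3.3% did. DESeq2 also called 0 of 7. The log2 fold change (HR over Control) was 0.46 (SE 0.97) for *Cnga2*, -0.19 (SE 0.33) for *Gnal*, 0.00 (SE 0.09) for *Adcy3*, 0.06 (SE 0.81) for *Stoml3*, -0.11 (SE 0.12) for *Rtp1*, 0.06 (SE 0.17) for *Rtp2* and 0.01 (SE 0.06) for *Ric8b*. All 7 had an adjusted p of 0.9997. The median over the 7 genes was 0.01, and over all genes tested 0.00. The 95% intervals were narrow for *Ric8b* (-0.10 to 0.12) and *Adcy3* (-0.18 to 0.19) and wide for *Cnga2* (-1.44 to 2.35) and *Stoml3* (-1.53 to 1.65), so that a severalfold difference in the latter pair was not detectable. This model took the 16 libraries as independent, although the male and female pool of a line are related. Its SE and intervals may therefore be too narrow for a comparison of lines.

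With the line as the unit, the mean log2 CPM of 4 HR lines was set against that of 4 Control lines. For *Rtp2* it was 7.92 ± 0.39 (SD, n = 4) in HR and 7.88 ± 0.35 (SD, n = 4) in Control lines (exact two-sided permutation test, p = 0.857). For *Rtp1* it was 9.53 ± 0.21 in HR and 9.64 ± 0.26 in Control lines (exact permutation p = 0.514), and for *Gnal* 2.64 ± 0.51 and 2.75 ± 0.78 (exact permutation p = 0.80). For *Cnga2* it was -1.53 ± 1.55 in HR and -2.06 ± 1.38 in Control lines (exact permutation p = 0.80). The smallest p this design allows is 0.0286. Each linetype held lines with high and lines with low values of these 4 genes. Leaving out Control line 5 moved the edgeR log2 fold change of *Cnga2* from 0.46 to 2.46 and that of *Stoml3* from 0.06 to 1.32, and leaving out HR line 3 moved them to -0.19 and -0.74, with no call in either case.

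**Figure D4:**
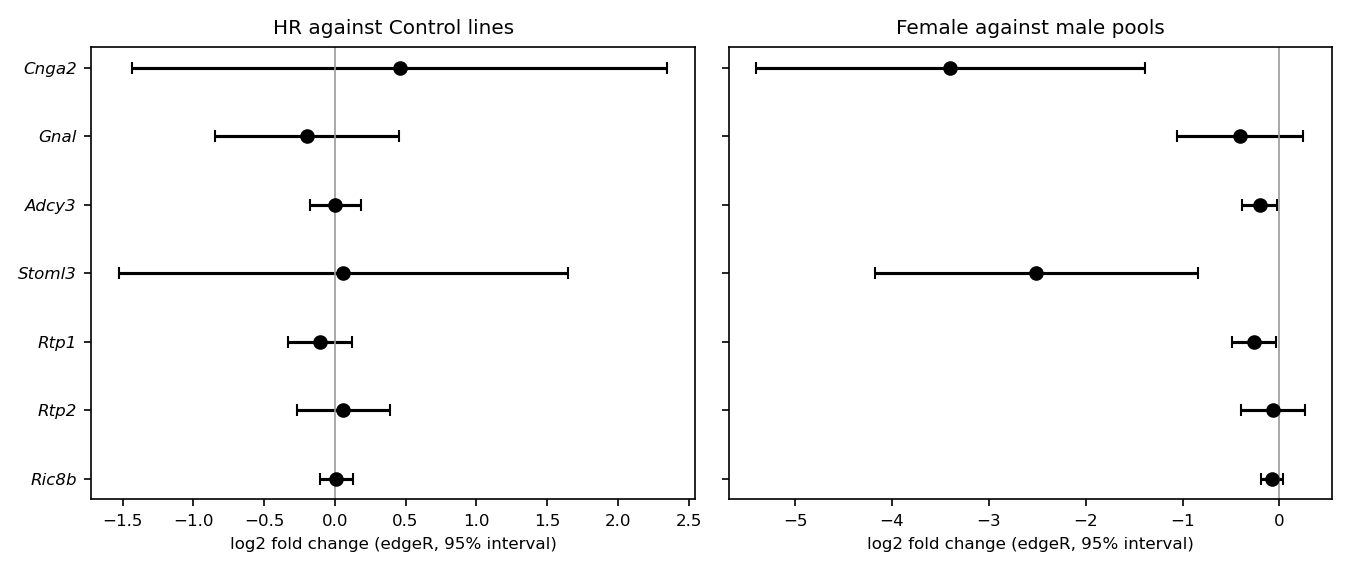
Log2 fold change of each gene in HR against Control lines (left) and in female against male pools (right) from edgeR, with 95% intervals from the standard error and libraries taken as independent. On the left all 7 intervals include 0; on the right those of *Cnga2*, *Stoml3*, *Adcy3* and *Rtp1* lie below 0 without correction for the number of genes, and no gene passed after it.

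Female and male pools were compared in the same way, with linetype in the model. By edgeR 0 of 7 genes had an adjusted p under 0.05, where 0.188% of 16507 genes were called, and 4 of 7 had an unadjusted p under 0.05, where 8.08% did. These 4 were all lower in females: *Cnga2* with a log2 fold change of -3.40 (SE 1.02, adjusted p = 0.286), *Stoml3* with -2.51 (SE 0.85, adjusted p = 0.400), *Rtp1* with -0.26 (SE 0.12, adjusted p = 0.588) and *Adcy3* with -0.20 (SE 0.09, adjusted p = 0.601). With line as a block, edgeR gave -2.72 for *Cnga2* (adjusted p = 0.0792) and -0.25 for *Rtp1* (adjusted p = 0.0831), and again called 0 of 7 genes. Over the 8 lines, *Cnga2* and *Rtp1* were each higher in the male pool of 8 of 8 lines (exact two-sided sign-flip permutation test, p = 0.00781 for both, the smallest p 8 lines allow, not corrected for the 7 genes). For *Stoml3* this was so in 5 of 8 lines (exact permutation p = 0.117). For *Cnga2* the direction rested on few reads in several lines. Male and female pools had 9 and 5 reads in line 1, 4 and 1 in line 2 and 5 and 3 in line 7. The 95% Clopper-Pearson intervals of the 2 pools overlapped in each of these lines. Without the 3 male pools that stood apart, the log2 fold change of *Stoml3* was -0.07, that of *Gnal* changed from -0.40 to 0.29 and that of *Rtp1* from -0.26 to -0.39. These pools were picked for high *Cnga2* and were also the highest for *Stoml3*, so its smaller difference was partly built in. The tables hold 8 libraries of 1 sex each and the methods describe 8 libraries in a lane, so sex may coincide with sequencing run, and in that case they cannot be told apart.

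The interaction of sex and linetype was called for 0 of 7 genes and for 0% of 16757 genes by edgeR, and at an unadjusted p under 0.05 for 0 of 7 genes and 0.46% of all genes (77). DESeq2 also called 0 genes. The interaction term of *Cnga2* was 1.47 (SE 2.08) and that of *Rtp2* 0.07 (SE 0.35), both as differences of log2 fold changes.

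By line means, the lines fell into 2 groups of 4 in *Trpc2*. Single pools of the 2 groups nearly met, at 321 RPKM in the HR line 3 female pool and 324 RPKM in the Control line 1 female pool. The mean RPKM over the 2 pools was 281, 286, 290.0 and 307 in Control lines 5 and 4 and HR lines 3 and 6, and 353, 358, 361 and 400 in Control line 1, HR lines 8 and 7 and Control line 2. The mean log2 CPM of *Rtp2* was 7.48, 7.70, 7.44 and 7.77 in the former lines and 8.05, 8.29, 8.17 and 8.27 in the latter, in the same order, without overlap. For *Gnal* it was 3.85, 2.67, 3.37 and 2.61 in the former and 2.42, 2.20, 2.39 and 2.06 in the latter, again without overlap but in the opposite direction. Each group held 2 Control and 2 HR lines. Of 14 relations tested over the 8 line means (7 genes against *Trpc2* and against the summed *Olfr* level), 2 passed an adjusted p under 0.05 by an exact permutation test of Pearson's r, those of *Rtp2* and *Gnal* with *Trpc2*. By an exact permutation test of Spearman's rho only *Gnal* with *Trpc2* passed (adjusted p = 0.016). *Rtp2* with *Trpc2* was then at an adjusted p of 0.05 (exact permutation test), not under it. Because the lines fell into groups with fewer than 6 lines, no pooled correlation coefficient is read as the strength of a relation. 

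**Figure D5:**
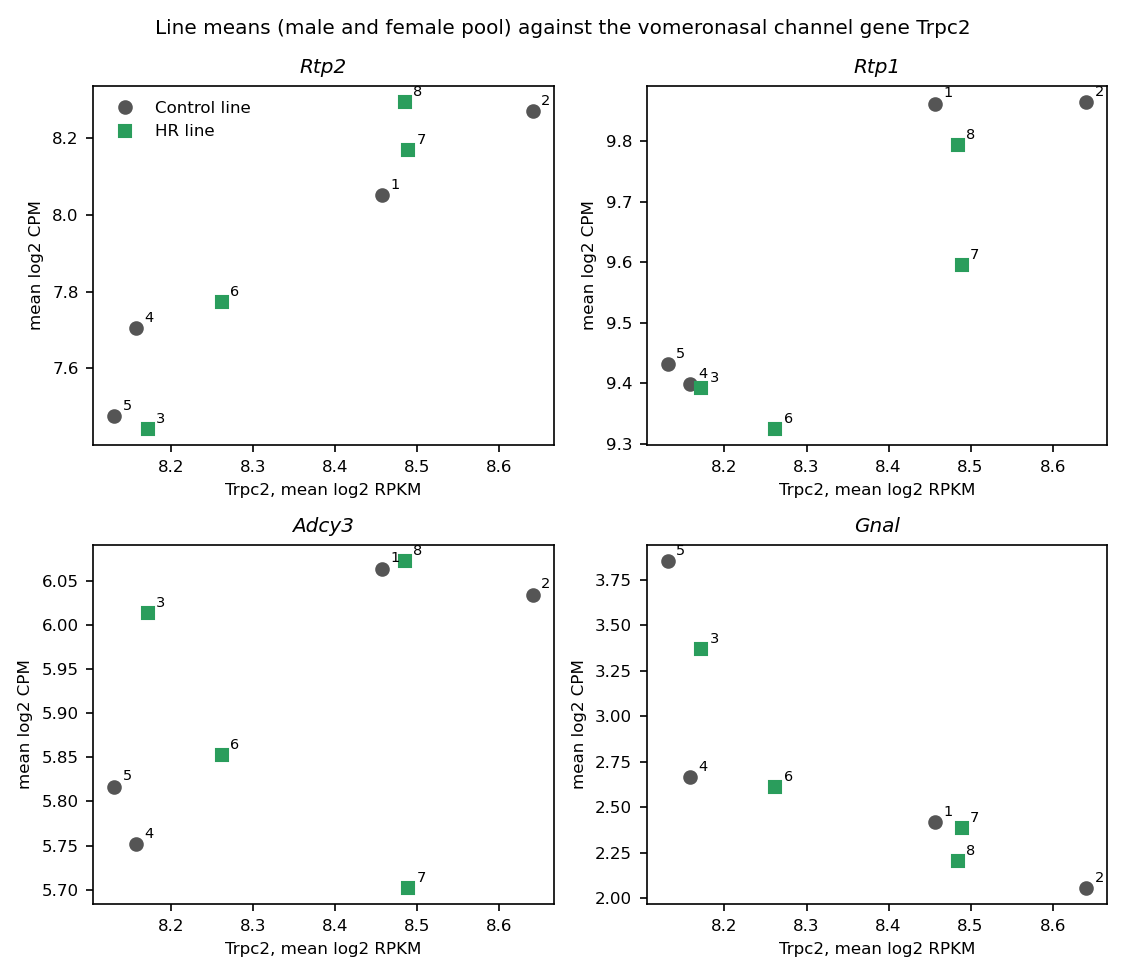
Mean log2 CPM (y axis) of *Rtp2*, *Rtp1*, *Adcy3* and *Gnal* against mean log2 RPKM of *Trpc2* (x axis) for the 8 lines, numbered, with Control lines as circles and HR lines as squares. Lines 3, 4, 5 and 6 lie at low *Trpc2* with low *Rtp2* (7.44 to 7.77) and high *Gnal* (2.61 to 3.85), and lines 1, 2, 7 and 8 at high *Trpc2*; *Adcy3* shows no such grouping.

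The other genes of the main olfactory cascade were, like *Adcy3*, present in all VNO pools. All 12 of the list were tested, and none reached 0 CPM in a library. Of the channel partners of *Cnga2*, *Cnga4* lay at 45.4 to 96.1 CPM and *Cngb1* at 160 to 253 CPM, far above *Cnga2* itself on this scale, which is not corrected for length. The chloride channel gene *Ano2* lay at 135 to 212 CPM, the phosphodiesterase gene *Pde1c* at 179 to 279 CPM, and *Gnas*, the other stimulatory G protein alpha subunit, at 413 to 581 CPM. In the test of lines 6 of these 12 genes passed (*Adrbk2*, an older symbol of the receptor kinase gene *Grk3*, *Cngb1*, *Cnga4*, *Gnb1*, *Ano2* and *Gnas*), against 25.6% of all genes. In HR against Control lines 0 of 12 passed, where 0.0242% of all genes did (median log2 fold change -0.01). *Gng13*, the G protein gamma subunit of Golf, stood apart in 2 female pools, at 2.28 CPM in Control line 5 and 1.51 CPM in HR line 3, against 20.5 to 53.7 CPM in the other 14 libraries. Without these 2 pools the log2 fold change of *Rtp2* between the sexes changed from -0.07 to 0.07. Control line 5 and HR line 3 then held only their male pools, the 2 highest for *Stoml3*, so the test of lines could not be read for that gene.

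Relatives of the trafficking genes and of *Stoml3* were also measured. Of 13 genes listed, 12 were in the tables and 11 were tested, of which 5 passed in the test of lines (*Stom*, *Reep5*, *Gfy*, *Rtp4* and *Reep4*) where 25.6% of all genes did, and 0 in HR against Control lines, where 0.0242% did (median log2 fold change 0.05). *Gfy*, which encodes a Golgi protein of olfactory neurons, was the most abundant at 1591 to 4191 CPM, with a rho of 0.78 with *Omp*. *Stom*, the founding stomatin, lay at 1401 to 2859 CPM (rho of 0.91 with *Omp*), whereas its relative *Stoml3* was below 1 CPM in 13 libraries. Of 8 regulators of olfactory neurons 5 passed in the test of lines (*Ebf1*, *Ebf3*, *Ebf4*, *Lhx2* and *Atf5*), of 7 zonal and activity genes 4 (*Kirrel3*, *Acsm4*, *Ncam2* and *S100a5*), and of 10 markers of vomeronasal neurons 3 (*Vmn2r1*, *Tfap2e* and *Gnai2*), the last near the 25.6% of all genes. None of these passed in HR against Control lines, where 0.0242% of all genes did, so few calls could be seen. *S100a5* had a log2 fold change of 1.10 there (SE 0.39, edgeR unadjusted p = 0.0122), where 3.3% of all genes had an unadjusted p under 0.05.

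The genes whose profiles over the 16 libraries were most like those of the members differed between the pool-bound and the shared genes. By Spearman rho over 16 libraries among 16506 other genes, *Rtp1* was most like *Gnai2* (rho = 0.96), the vomeronasal G protein gene, and *Rtp2* most like *Ube2e1* (0.99), *Cend1* and *Nhlh1* (0.98 each). *Stoml3* was most like *Jade2* (0.96) and *Ugt2a1* (0.88). *Gnal* was most like *Osbpl7* and *Ptgs1* (0.96 each). Among the genes most like *Cnga2* were *Fndc5* and *Pabpc1* (0.90 each). *Adcy3* was most like *Efcab14* (0.89) and *Ric8b* most like *Atpaf2* (0.89). These are the highest of many values over few libraries and are given as descriptions.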

How the data were processed

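The count tables hold reads per gene as deposited by the authors, who aligned single-end reads of 75 nucleotides to GRCm38 with STAR 2.6.1d without mismatches and kept reads with a single location; the counting tool, the annotation and the use of the strand are not given in the sources used here. A mouse that differs from the reference within a gene can therefore lose reads there. The RPKM tables hold the values that the authors computed with Cufflinks tools per transcript length and library size, as deposited, and scaled separately for each sex. Both tables of a kind hold the 8 libraries of 1 sex, and 4 entries of repeated gene names were left out. For males, reads not on genes made 34.9% to 37.3%, and these summary entries were left out too. Depth was 15998552 to 70875276 counts per library. The labels do not say how the 3 mice of a pool varied.

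The members and all gene lists were chosen with earlier results of these data known. Counts were tested in R 4.3.3 with edgeR 4.0.16 (quasi-likelihood, TMM, filterByExpr at a minimum count of 10, Benjamini-Hochberg over all genes tested, threshold 0.05). SE are the log2 fold change divided by the square root of F. Models held linetype and sex, line and sex for the test of lines, or their interaction. Lines are nested in linetype, so line entered as a block only in tests of sex and of the interaction. Line numbers pair the libraries: after removal of group means, same-line libraries of the 2 sexes correlated at 0.32 to 0.71 across 16507 genes. CPM are TMM-scaled, and log2 CPM used a prior count of 2. Values without TMM were used for Clopper-Pearson intervals and for the limit of 3 counts allowed by a 0. Line means were compared by exact permutation tests. The relation with *Trpc2* had been set on log2 CPM and was computed on log2 RPKM because the count table lists *Trpc2* at 0. Alternatives were DESeq2 1.42.0, limma 3.58.1 (voom with line as a random effect), RLE scaling, no filter, summed lines, RPKM with pseudocounts of 1 and 0.1, each line or library left out, and, added after the data were seen, fits without the libraries that stood apart in *Cnga2* or *Gng13* and without *Olfr692*. The count tests were checked on simulated counts. Named genes are the 7 members, the genes past a threshold and the highest and lowest of each list, and the genes most like each member, of which 1 is not reported here. *Olfr124*, *Olfr653*, *Olfr1509*, *Gng13*, *Gng8*, *Arrb2* and the support genes were singled out after their values were seen. Promoters were read with Python 3.11.15.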

Additional observations from a re-analysis of the deposited data

Results flagged for a closer look

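In 28 groups of 4 libraries (7 genes by 2 linetypes and 2 sexes), 3 held a library far from the others by Dixon's test at 95%, a criterion by which chance flags about 1 in 20 groups. *Cnga2* was at 5.18 CPM in the male pool of Control line 5, where the next male Control pool had 0.371 CPM. *Stoml3* was at 7.54 CPM in the same library, against 0.847 CPM in the next. *Stoml3* was also at 0.422 CPM in the female pool of Control line 1, against 0.227 CPM in the next, a difference of 30 against 9 reads in libraries of 70875276 and 36734512 counts.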

How the results depend on the processing

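In the fits across all genes, no alternative gave a call for a member in HR against Control lines, between the sexes or in the interaction, and *Rtp1* and *Rtp2* differed between lines in every alternative. The causes of the differences listed here were not tested. The number of genes called in HR against Control lines was 30 by DESeq2 and 0 both with the counts of a line summed and by limma-voom with line taken as a random term, against 4 by edgeR. DESeq2 called 7162 genes between lines, *Stoml3* among them, and 182 between the sexes, against 4406 and 31. Without the filter on low counts, 19 genes were called between the sexes. With line as a replicate block, 87 genes were called between the sexes and 0 in the interaction, and the block changed no call of a member. DESeq2 gave *Cnga2* and *Stoml3* no adjusted p between the sexes.

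Small log2 fold changes changed sign. In HR against Control lines, *Adcy3* was -0.0015 with RLE scaling, -0.0021 by DESeq2, -0.0063 without the filter, -0.046 with lines summed, -0.016 by limma-voom and -0.065 without the libraries apart in *Gng13*. *Stoml3* was -0.24 and *Ric8b* -0.00063 with lines summed, *Stoml3* -0.055 without the libraries apart in *Gng13*, and *Gnal* 0.090 by limma-voom. On line means *Gnal* was 0.057 with log2(RPKM + 1) and 0.18 with log2(RPKM + 0.1). Between the sexes *Gnal* was 0.29 without the libraries apart in *Cnga2* and *Rtp2* 0.073 without those apart in *Gng13*. The interaction became -0.085 for *Rtp1*, -0.084 for *Rtp2* and -0.038 for *Ric8b* without the former libraries, and 0.029 for *Gnal*, -0.035 for *Adcy3* and -0.015 for *Ric8b* without the latter.

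With each line left out in turn, 1 to 17 genes were called in HR against Control lines and 13 to 25 between the sexes, and with each line or library left out 2417 to 5978 between lines, lowest without the HR line 8 female library. The log2 fold change in HR against Control lines then ranged from -0.19 to 2.46 for *Cnga2* (which gave no value without HR line 6), -0.52 to 0.33 for *Gnal*, -0.056 to 0.060 for *Adcy3*, -0.74 to 1.32 for *Stoml3*, -0.079 to 0.21 for *Rtp2* and -0.027 to 0.046 for *Ric8b*. On line means it ranged from -0.35 to 0.26 for *Gnal*, -0.062 to 0.063 for *Adcy3*, -0.30 to 0.69 for *Stoml3*, -0.089 to 0.20 for *Rtp2* and -0.040 to 0.035 for *Ric8b*. The interaction ranged from -1.22 to 2.85 for *Cnga2*, -0.54 to 0.19 for *Gnal*, -1.66 to 2.21 for *Stoml3* and -0.025 to 0.050 for *Ric8b*.

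Of the 14 relations with *Trpc2* or the summed *Olfr* level, tested by Pearson's r, 2 passed over the 8 lines, 8 within male libraries, 0 within female libraries, 0 without the 2 farthest lines and 7 with log2(RPKM + 0.1). Pearson's r of *Rtp2* with *Trpc2* was 0.94 without the 2 farthest lines and 0.80 within female libraries, and that of *Gnal* -0.79 and -0.82, against 0.95 and -0.83 over 8 lines. These coefficients compare the settings only and are not read as strengths, as the lines fell into 2 groups. With the *Olfr* sum, Pearson's r of *Ric8b* was -0.081 within female libraries, that of *Adcy3* 0.59 without the 2 farthest lines, and without *Olfr692* those of *Cnga2*, *Stoml3* and *Rtp2* were -0.18, -0.19 and 0.073, all of the opposite sign to the values over all 8 lines. Depth limits *Cnga2* and *Stoml3*, which had 0 to 44 and 3 to 45 reads outside the 2 highest libraries.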
